A study of Mus musculus with 8 samples.

Results

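Nuclear receptors other than the retinoid receptors were followed in hematopoietic stem cells (HSCs) of old and young mice. The members were 39 gene symbols named for their membership of the nuclear receptor family, with the retinoic acid and retinoid X receptors set apart, and the rule uses no measured value. They stood in 40 of the 38172 rows of the gene table, since Nr1h3 appeared both alone and joined with a second symbol. The old group held HSCs of C57BL/6 mice at 24 months and the young group HSCs of C57BL/6 mice at 4 months, both freshly sorted from bone marrow as SP-KSL-CD150+ cells. That sort takes cells that pump out a DNA dye (side population, SP), carry Kit and Sca-1 but no lineage markers (KSL), and carry CD150, the product of Slamf1. PolyA-selected RNA was sequenced from 2 biological replicates per age, numbered 13 and 14 at each age, with 2 technical libraries from each. The sources used here do not give the number or sex of the animals behind a replicate, or the hour of collection. The p-values measure only the spread between these 4 samples.

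Nuclear receptors are transcription factors with a zinc-finger DNA-binding domain and a domain that in many members binds a small lipophilic ligand, such as a steroid, thyroid hormone, vitamin D, a fatty acid, an oxysterol or heme. Steroid receptors are held by chaperones and bind DNA mostly as homodimers. Many others pair with a retinoid X receptor, and binding of ligand exchanges corepressors for coactivators. Orphan members such as the Nr4a receptors act without a known classical ligand, and Nr4a genes are induced within a short time of a stimulus.

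The deposited values named like counts summed to between 40.7 M and 44.2 M per library. They are reads multiplied by 1 factor per library and rounded, called scaled values here, and the factors correspond to between 22.3 M and 66.5 M reads. Genes of the stem cell list, which holds the sort marker Slamf1, lay above 0 in log2 fold change, old over young, for 10 of 10 tested. Their scaled values summed to 146593 and 162608 in old replicates 13 and 14, against 132866 and 127764 in young replicates 13 and 14. Neutrophil genes summed to 5598 and 17359 in the old replicates and to 9840 and 46840 in the young ones, with 12 of 12 tested genes below 0, 5 at an unadjusted p under 0.05 and none called by limma or limma-voom. Stromal genes summed to 2542 and 2178 in old HSCs and to 6200 and 6750 in young HSCs, with 9 of 9 below 0, and Col1a1, Sparc and Col3a1 fell. Erythroid genes summed to 6885 and 6348 in old HSCs and to 12227 and 12126 in young HSCs, with 11 of 11 below 0 and 5 of them called lower. Megakaryocyte genes summed to 97570 and 109036 in old HSCs and to 59208 and 66251 in young HSCs, with 7 of 10 above 0 and a median log2 fold change of 0.16, and Vwf and Itgb3 rose. Macrophage genes summed to 1982 and 2446 in old HSCs and to 2998 and 4864 in young HSCs, with 9 of 10 below 0 and Vcam1 called lower. For T and NK cells the sums were 2926 and 4494 in old HSCs and 836.5 and 998 in young HSCs, with 3 of 4 above 0 and Klrb1c called higher. B cell genes summed to 1277 and 1258 in old HSCs and to 1163 and 1224 in young HSCs, with 5 of 7 below 0 and none called by limma or limma-voom, 1 of them at an unadjusted p under 0.05. Endothelial genes summed to 26721 and 28080 in old HSCs and to 23547 and 22500 in young HSCs, with 4 of 8 above 0, and Cldn5 and Kdr rose. Young replicate 14 stood apart from the other samples in immediate early genes, which cells switch on within minutes of a stimulus. The 30 tested rows of that list summed to 33934 and 64764 in the old replicates and to 41320 and 227325 in young replicates 13 and 14. In RNA from bulk cells, fewer cells of a type and less RNA per cell cannot be told apart.

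The receptors spanned a wide range of levels. In FPKM, which corrects for gene length and so permits comparison between genes, 21 rows averaged at least 1 over the 4 replicates and 7 at least 10. Nr1h2, an oxysterol receptor, had the highest mean level at 33.3 FPKM, followed by the orphan receptor Nr2c2 at 27.4, the thyroid hormone receptor Thra at 27.2, Nr4a1 at 26.2, the glucocorticoid receptor Nr3c1 at 22.6, Vdr at 15.2 and Nr1d2 at 12.9. The mean of Nr4a1 rested on young replicate 14, at 91.6 FPKM, while its other samples lay between 3.10 and 6.89 FPKM. The summed level of the receptors was 210.0 and 217.6 FPKM in the old replicates, against 197.6 and 285.9 FPKM in young replicates 13 and 14. Those sums overlapped between the ages. Without the Nr4a genes, which were left out after their values were seen, the sums were 205.1 and 208.3 FPKM in old HSCs. In young HSCs they were then 192.5 and 186.0 FPKM. The old replicates lay above the young ones only by this second measure, which was not tested.

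**Figure D1:**
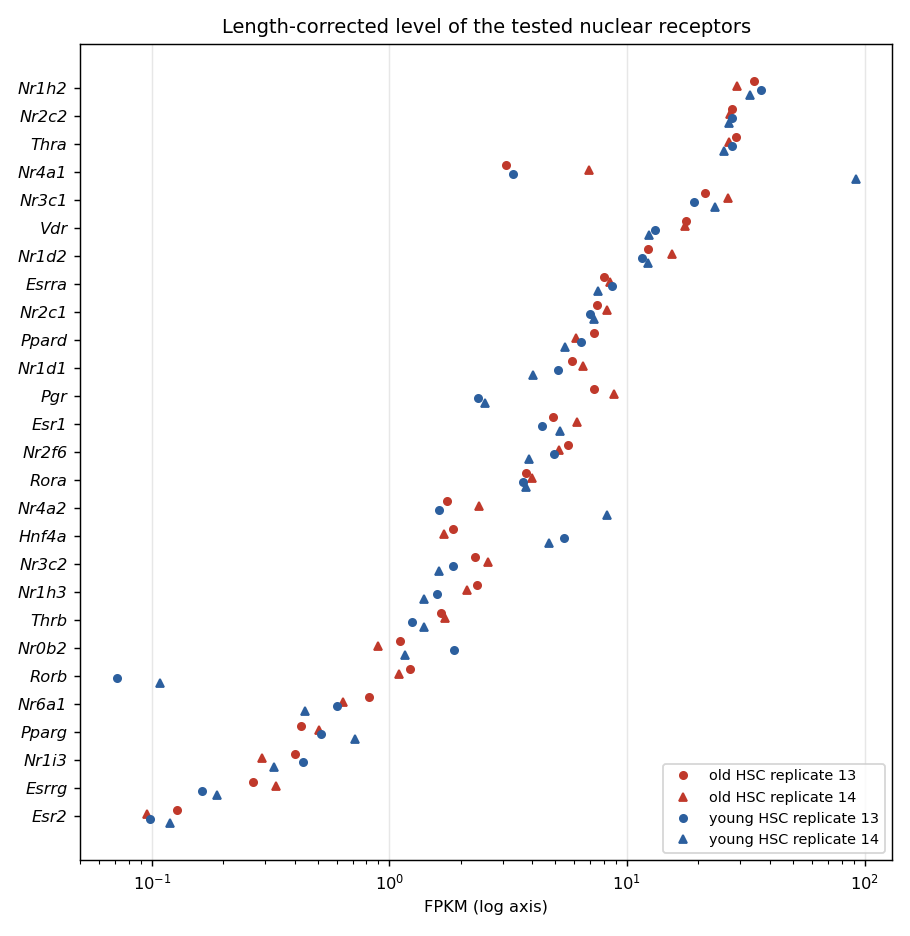
Level in FPKM (log axis) of the 27 tested nuclear receptors, with circles for replicate 13 and triangles for replicate 14, old HSCs in red and young HSCs in blue. The points of most receptors lie close together, Rorb (1.22 and 1.10 FPKM old, 0.0714 and 0.108 FPKM young), Pgr and Hnf4a separate by age, and Nr4a1 has 1 young sample apart at 91.6 FPKM.

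A row entered the test if 2 or more of the 4 replicates had scaled values of 10 or above. It was made with limma on log2(value + 0.5), old over young, with Benjamini-Hochberg adjustment over all 18318 such genes. That took in 27 receptor rows, whose lowest replicate value was 16, so no receptor entered the test through a single age. The other 13 rows reached at most 14.0. At an adjusted p under 0.05, 2 of the 27 rose with age and 1 fell, against 2.01% of all tested genes that rose and 0.54% that fell. These were Rorb, Pgr and Hnf4a. At an unadjusted p under 0.05, 7 were higher in old HSCs and 1 was lower, against 8.97% and 5.08% of all tested genes. Both old replicates lay above both young replicates for 12 receptors and below for 3, against 24.7% and 17.4% of all tested genes. The median log2 fold change of the 27 was 0.16, against 0.04 over all tested genes, and 20 of them (74.1%) lay above 0, against 56.5% of all tested genes. The count depends on the scaling. Nr2c2, Esr2 and Esrra lay above 0 by 0.03 or less and fell below 0 with median-ratio scaling and with limma-voom.

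**Figure D2:**
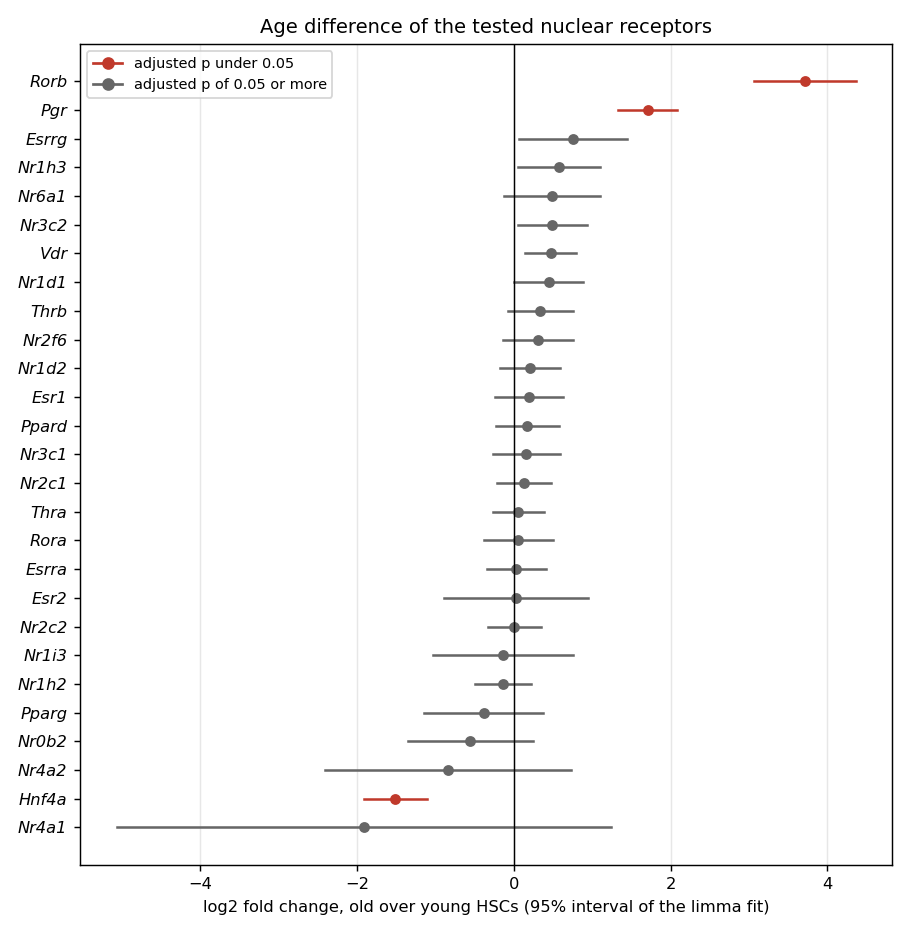
Log2 fold change, old over young, of the 27 tested nuclear receptors with its 95% interval from limma. Only Rorb (3.71), Pgr (1.71) and Hnf4a (-1.51) passed an adjusted p of 0.05, and the interval of Nr4a1 is the widest, from -5.06 to 1.24.

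Rorb encodes a member of the retinoic acid receptor-related orphan receptors, known for its roles in the retina and the nervous system. Its gene spans chr19:19005099-19185686 on the minus strand of mm9. Scaled values of Rorb were 574 and 515.5 in old replicates 13 and 14, against 33.5 and 50.5 in young replicates 13 and 14. The lower old value was several times the higher young value, and the groups did not overlap. The means were 544.8 ± 41.4 in old HSCs and 42.0 ± 12 in young HSCs (SD, n = 2 each). Rorb thus rose 13.1-fold (95% interval 8.35 to 20.5), a log2 fold change of 3.71 with a standard error of 0.27 and an adjusted p of 0.00217 in limma. Its level was 1.22 and 1.10 FPKM in old HSCs and 0.0714 and 0.108 FPKM in young HSCs, low among the receptors at both ages. The related receptor Rora, which activates clock genes such as Arntl, was at 306 and 325.5 in old HSCs and 298 and 306 in young HSCs. Its log2 fold change was 0.06 with a standard error of 0.19.

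Pgr is the progesterone receptor, a steroid receptor whose gene is a classical estrogen target in reproductive tissue. It lies at chr9:8899833-8968611 on the plus strand of mm9. Pgr had scaled values of 2491 and 3021 in old replicates 13 and 14, against 815.5 and 866.5 in young replicates 13 and 14. All old values were well above all young values. The means were 2756 ± 374.8 in old HSCs and 841 ± 36.1 in young HSCs (SD, n = 2 each). Pgr rose 3.26-fold (95% interval 2.52 to 4.23), a log2 fold change of 1.71 with a standard error of 0.16 and an adjusted p of 0.00421 in limma. In FPKM it stood at 7.24 and 8.78 in old HSCs, against 2.37 and 2.52 in young HSCs.

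Hnf4a, a receptor that binds fatty acids and is known as a regulator of liver and gut epithelium, moved the other way. Its gene lies at chr2:163372924-163398643 on the plus strand of mm9. Scaled values of Hnf4a were 403 and 369.5 in old replicates 13 and 14, against 1181 and 1024.5 in young replicates 13 and 14. Every old value was lower than every young value. The means were 386.2 ± 23.7 in old HSCs and 1103 ± 110.7 in young HSCs (SD, n = 2 each). Hnf4a fell to 0.351 of its young level (95% interval 0.266 to 0.464), a log2 fold change of -1.51 with a standard error of 0.17 and an adjusted p of 0.00831. Of 15 genes listed for liver and epithelial cells, a list added after the values of Hnf4a were seen, 6 were tested and all 6 lay above 0. Epcam, an epithelial adhesion molecule, rose. Their scaled values summed to 6967 and 7704 in old HSCs and to 4814 and 4468 in young HSCs. The defining liver genes were at or near 0, with Alb at 1 and 0 in old HSCs and 0 in both young replicates, and Ttr at 0 in every sample. The stromal, erythroid and macrophage lists lay lower in old HSCs, as Hnf4a did, and all 12 tested neutrophil genes lay below 0. The part of these lists in the values of Hnf4a was not tested.

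**Figure D3:**
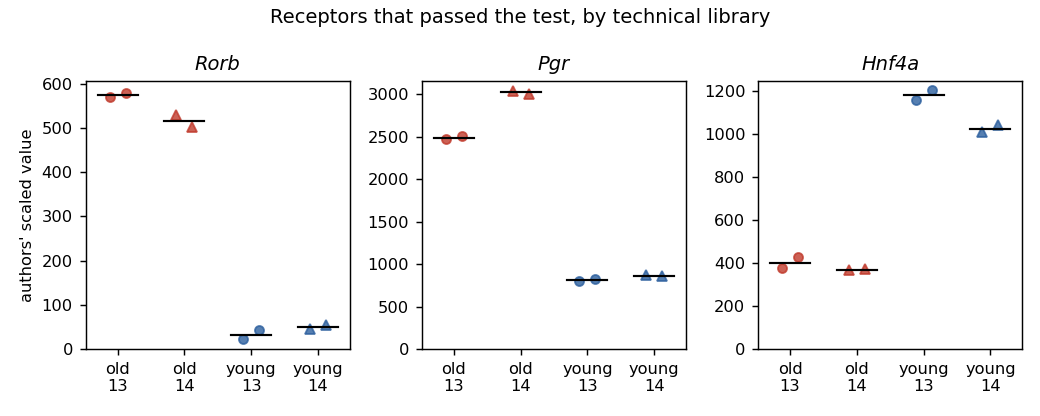
Scaled value (linear axis from 0) of Rorb, Pgr and Hnf4a in each of the 8 libraries, old HSCs in red and young HSCs in blue, with a line at the mean of the technical libraries of a replicate. Old values lie above young values for Rorb and Pgr and below them for Hnf4a. Technical libraries of a replicate lie close together on this axis, but those of young replicate 13 were at 24 and 43 for Rorb.

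The calls of the 3 receptors needed both old replicates. Without old replicate 13 or without old replicate 14, limma called 0 of all tested genes, and the lone old sample was then assumed to vary like the young ones. At an unadjusted p under 0.05, 2123 genes were then higher and 1546 lower without old replicate 13, and 1217 higher and 716 lower without old replicate 14. The log2 fold changes then ranged from 3.63 to 3.79 for Rorb, from 1.57 to 1.84 for Pgr and from -1.57 to -1.45 for Hnf4a. Their adjusted p-values then lay between 0.124 and 0.194. Without young replicate 13 or without young replicate 14 all 3 stayed under 0.05, Hnf4a by little at 0.0498 in the first case. With no filter on low values, limma called 0 genes and Rorb had an adjusted p of 0.0551. With the limma-voom weights all 3 were called, with adjusted p-values between 0.00637 and 0.0177.

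Sequences upstream of annotated starts of the 3 called genes are printed. Which start HSCs use was not tested. They are the 250 bases before a transcript start from RefSeq on GRCm38.p6, a later build than the mm9 of the gene table, written 5′ to 3′ on the gene's strand, with CCAAT or its reverse complement in capitals. The CCAAT box is an element bound by nuclear factor Y. The window of Rorb lies at chr19:19111197-19111446 on the minus strand, that of Pgr at chr9:8899583-8899832 on the plus strand and that of Hnf4a at chr2:163506607-163506856 on the plus strand.
Rorb: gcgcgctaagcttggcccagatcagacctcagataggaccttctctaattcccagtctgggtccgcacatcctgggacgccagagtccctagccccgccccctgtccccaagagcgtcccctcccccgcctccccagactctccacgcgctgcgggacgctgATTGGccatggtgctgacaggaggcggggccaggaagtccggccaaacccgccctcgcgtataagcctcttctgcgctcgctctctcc
Pgr: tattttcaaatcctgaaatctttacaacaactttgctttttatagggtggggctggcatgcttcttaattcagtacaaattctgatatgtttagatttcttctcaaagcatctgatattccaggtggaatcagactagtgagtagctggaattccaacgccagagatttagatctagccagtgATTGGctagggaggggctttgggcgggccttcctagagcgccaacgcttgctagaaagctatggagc
Hnf4a: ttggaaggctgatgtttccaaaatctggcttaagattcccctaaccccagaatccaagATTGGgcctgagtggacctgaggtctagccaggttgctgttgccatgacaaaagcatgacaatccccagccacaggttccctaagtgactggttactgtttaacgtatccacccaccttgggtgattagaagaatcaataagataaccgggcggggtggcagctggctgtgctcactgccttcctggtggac
Each of these windows held 1 match. RefSeq gives another start for Rorb, whose window at chr19:19001118-19001367 held 0 matches at 39.2% GC, and another for Hnf4a, whose window at chr2:163546905-163547154 held 1. By position, the counted models of Rorb and Pgr begin where their printed windows end. The counted Hnf4a model is shorter than the distance between its RefSeq starts. The offset between builds grew along that chromosome from Nr4a2 to Nr1h3, and only the other Hnf4a start continues this. The printed Hnf4a window therefore probably lies well upstream of the counted model. The printed starts and CCAAT were picked after the sequences were seen, and 33.8% of all 32851 windows of this length held it, as did 18 of the 50 windows of the receptors. GC content was 66.0% for this Rorb start, 43.6% for Pgr and 51.2% for this Hnf4a start. The hexamer AGGTCA, the core that many nuclear receptors bind, matched none of these 3 windows. It was present in 14.0% of all windows and in 8 of the 50, those of Nr0b1, Nr1d2, Nr1h4, Nr5a2, Nr6a1, Pparg and Thrb. A match is a run of letters and not a shown binding site.

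The thyroid hormone receptors were the first of the receptors that bind DNA mostly with a retinoid X receptor. Thra had scaled values of 3224 and 3001.5 in old HSCs, against 3085.5 and 2879.5 in young HSCs. Thrb had 539.5 and 559.5 in old HSCs, against 409 and 458.5 in young HSCs. The ages overlapped for Thra, while both old values of Thrb lay above both young ones. The log2 fold changes were 0.06 for Thra and 0.34 for Thrb, with standard errors of 0.14 and 0.17, and neither passed. The retinoid X receptors, their shared partners, did not pass either, with log2 fold changes of 0.28 for Rxra and -0.13 for Rxrb.

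Among the fatty acid sensors, Ppard was the main one by level. Ppard had scaled values of 1169.5 and 981 in old HSCs, against 1028.5 and 879.5 in young HSCs, and the ages overlapped. Pparg, the regulator of fat cell genes, had 42 and 50 in old HSCs and 51 and 70.5 in young HSCs. Its old values lay just below its young ones, with a log2 fold change of -0.38 and a standard error of 0.32, and that of Ppard was 0.17 with a standard error of 0.17. Ppara, which drives fatty acid oxidation in liver, reached at most 12.5 and was among the rows just outside the filter. Of 23 tested PPAR target genes 0 passed in limma and 0 with limma-voom, with 2 and 3 at an unadjusted p under 0.05 and a median log2 fold change of 0.07. Those with the smallest p were Fabp4 at -1.25 and Creb3l3 at -1.36 on that scale.

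The oxysterol receptors differed in level and in age pattern. Nr1h2 had scaled values of 3349 and 2834 in old HSCs, against 3571.5 and 3233 in young HSCs, with overlap. Nr1h3 had 236 and 215.5 in old HSCs, against 160.5 and 141.5 in young HSCs, without overlap. Nr1h3 had a log2 fold change of 0.58 with a standard error of 0.22, an unadjusted p of 0.0324 and an adjusted p of 0.286 in limma, so it missed the threshold. Of 13 tested LXR target genes 2 passed, both higher with age, and the list's median log2 fold change was -0.02. Lpl, a lipase of triglyceride-rich lipoproteins, rose to 2220 and 1881.5 in old HSCs, against 829.5 and 786.5 in young HSCs. Scd1, a fatty acid desaturase, rose to 841 and 1037.5 in old HSCs, against 449 and 387.5 in young HSCs. Both sets of values were separate by age, with adjusted p-values of 0.00975 and 0.0275 in limma. Apoe, an apolipoprotein, had a log2 fold change of 0.30 and an adjusted p of 0.505. The second row of Nr1h3 and the bile acid receptor Nr1h4 reached at most 5.0 and were not tested.

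Vdr is the vitamin D receptor, whose ligand is known for calcium balance and for effects on immune cells. It had scaled values of 3852.5 and 3818 in old HSCs, against 2855.5 and 2690.5 in young HSCs. The replicates of each age lay close together and the ages were apart. The ratio was 1.38 (95% interval 1.11 to 1.72), with an unadjusted p of 0.0102 and an adjusted p of 0.16 in limma, so the receptor did not pass. The xenobiotic sensor Nr1i2 reached at most 8.5. Its relative Nr1i3 had 28 and 20.5 in old HSCs, against 30.5 and 23 in young HSCs. Nr1i3 overlaps Tomm40l on the other strand, whose mean scaled value was 1525. No source used here says whether counting used strand, so reads of such pairs cannot be told apart. Of 7 tested xenobiotic target genes 1 passed, the drug efflux pump gene Abcb1a, at 1415.5 and 1287 in old HSCs and 757 and 669.5 in young HSCs. Its log2 fold change was 0.92 with an adjusted p of 0.0334 in limma, and limma-voom called none of the 7. Abcc3 and Abcb1b, also efflux pump genes, had log2 fold changes of 0.73 and 0.45 and did not pass.

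The Rev-erbs Nr1d1 and Nr1d2 bind heme and repress clock genes, in opposition to the RORs. Nr1d1 had scaled values of 770.5 and 854 in old HSCs, against 673 and 524.5 in young HSCs. Nr1d2 had 2850 and 3601 in old HSCs, against 2698 and 2843.5 in young HSCs. For both genes all old values lay above all young values. Nr1d1 had a log2 fold change of 0.45 with a standard error of 0.19, an unadjusted p of 0.0473 and an adjusted p of 0.345 in limma, and Nr1d2 had 0.21 with a standard error of 0.16. Of 19 tested circadian genes 1 passed. Bhlhe41, a repressor of the clock, had 46.5 and 42 in old HSCs, against 4 and 5.5 in young HSCs, with a log2 fold change of 3.10 and an adjusted p of 0.0137. Its young values were below the filter of 10, so it entered the test through the old samples alone and had to differ, and its call is given as a description. Its relative Bhlhe40 had a log2 fold change of 0.92 and an adjusted p of 0.0841, and Clock had 0.28.

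Orphan receptors with Nr2 symbols were either well expressed, with no call by age, or nearly silent. Nr2c2 had scaled values of 10573 and 10334.5 in old HSCs, against 10557 and 10253 in young HSCs. Its ratio of old to young was bounded by 0.794 and 1.27, and its reads can include those of Mrps25 on the other strand. Nr2c1 had 1420 and 1571 in old HSCs and 1332 and 1392 in young HSCs, apart by age but with a log2 fold change of 0.13 and a standard error of 0.14. Nr2f6, of the COUP-TF group, had 626.5 and 574 in old HSCs and 546.5 and 427.5 in young HSCs, also apart, at 0.31 with a standard error of 0.19. Nr2e1, Nr2e3, Nr2f1 and Nr2f2, known from brain, retina and vessel development, reached at most 1.5 in any replicate. The gonadal and liver receptors Nr5a1 and Nr5a2 and the pluripotency factor Esrrb reached at most 2.5. Nr0b1, which lacks a DNA-binding domain, was at 0 in every library. Nr0b2, of the same kind, had 62 and 50 in old HSCs and 104.5 and 64.5 in young HSCs, with a log2 fold change of -0.56 and an adjusted p of 0.558. The germ cell factor Nr6a1 had 257.5 and 200.5 in old HSCs, against 189.5 and 138.5 in young HSCs, at 0.49 with an adjusted p of 0.494.

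Among the steroid receptors besides Pgr, the glucocorticoid receptor Nr3c1 was the highest. Nr3c1 had scaled values of 6714.5 and 8373 in old HSCs, against 6051.5 and 7437.5 in young HSCs, and the ages overlapped. Its log2 fold change was 0.16 with a standard error of 0.18. Nr3c2, the mineralocorticoid receptor, had 467 and 528 in old HSCs, against 378.5 and 329 in young HSCs, without overlap. Nr3c2 had a log2 fold change of 0.49 with an unadjusted p of 0.0336 and an adjusted p of 0.291 in limma. Of 16 tested glucocorticoid target genes 2 passed, and the list median was 0.25. They were the metallothionein genes Mt1 and Mt2, whose products bind zinc and which metals also induce. Mt1 had 1592.5 and 2154 in old HSCs, against 661.5 and 734 in young HSCs, and an adjusted p of 0.0152. Mt2 had 633 and 937 in old HSCs, against 215.5 and 279.5 in young HSCs, and an adjusted p of 0.0226. Klf9 had a log2 fold change of 0.30, Tsc22d3 had 0.24 and Fkbp5 had -0.20, and none of these passed. Tsc22d3 and Fkbp5 are commonly read as glucocorticoid targets and were picked here after their values were seen.

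The estrogen receptors and their relatives gave no call. Esr1 had scaled values of 1055 and 1335 in old HSCs, against 948 and 1130 in young HSCs, and the ages overlapped. Its log2 fold change was 0.20 with a standard error of 0.18, and its reads can include those of an unnamed model on the other strand. Esr2 had 21.5 and 16 in old HSCs and 16.5 and 20 in young HSCs, just inside the filter. Esrra, which drives mitochondrial genes, had 893.5 and 951.5 in old HSCs and 967 and 841 in young HSCs. It overlaps Trmt112 on the other strand. Esrrg, of the same group, had 74 and 93 in old HSCs, against 45.5 and 52.5 in young HSCs, apart by age, with an unadjusted p of 0.0354 and an adjusted p of 0.301 in limma. Of 11 tested estrogen target genes 1 passed, which was Pgr itself. Ccnd1, a cyclin of the G1 phase, had a log2 fold change of 0.79 and an adjusted p of 0.0774, and the survival gene Bcl2 had 0.36 and 0.319.

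The Nr4a receptors set young replicate 14 apart. Nr4a1 and Nr4a2 are early response genes, and mice without Nr4a1 and Nr4a3 develop leukemia. Nr4a1 had scaled values of 383 and 850 in old replicates 13 and 14, against 407 and 11306.5 in young replicates 13 and 14. The 2 technical libraries of young replicate 14 gave 11245 and 11368. Nr4a2 had 291.5 and 396.5 in the old replicates, against 269.5 and 1378 in the young replicates. In both genes young replicate 14 was far above the other 3 samples, and the ages overlapped. Nr4a1 had a log2 fold change of -1.91 with a standard error of 1.33 (interval -5.06 to 1.24) and an adjusted p of 0.628 in limma. Nr4a2 had -0.84 with a standard error of 0.66 and an adjusted p of 0.674. In this fit neither receptor differed by age beyond the spread between replicates. With the replicate number added as a block, limma called both lower, at adjusted p-values of 0.00396 and 0.035. What same-numbered samples share is not known. Nr4a3, just outside the filter, had 6.5 and 6.5 in old HSCs and 14 and 9.5 in young HSCs, and so did not show the pattern of its relatives.

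Leaving out 1 young sample turned the sign. Without young replicate 14 the log2 fold change was 0.49 for Nr4a1 and 0.33 for Nr4a2, with adjusted p-values of 0.994 and 0.996. Without young replicate 13 it was -4.31 for Nr4a1 and -2.02 for Nr4a2, with adjusted p-values of 0.00258 and 0.0161, and the lone young sample was then assumed to vary like the old ones. Nr4a1 in replicate 14 was 27.7 times replicate 13 in young HSCs, and 2.22 times in old HSCs. The immediate early genes, a list that holds no nuclear receptor, lay higher in young replicate 14 than in young replicate 13 for 29 of 30 rows, with a median of 2.19 on the log2 scale. In old HSCs replicate 14 was the higher for 28 of 30 rows, with a median of 0.86. Over all tested genes the corresponding shares were 41.9% in young HSCs and 50.6% in old HSCs, with medians of -0.05 and 0.01, and 1.0% of genes were over 4-fold higher in young replicate 14 than in young replicate 13. No immediate early gene was called by age with limma or limma-voom, with 5 of the 30 rows at an unadjusted p under 0.05 in each. Those with the smallest p were the heat shock genes Hspa1a at -2.97 and Hspa1b at -1.72 and the phosphatase gene Dusp2 at -0.61 in log2 fold change. Fos, a subunit of the AP-1 factor and named after its values were seen, had 53.5 and 5256.5 in the old replicates, against 632 and 34457.5 in the young replicates. Neutrophil markers were also highest in young replicate 14. Their part in the Nr4a values, was not tested. Nr4a1 overlaps 2 unnamed models on the other strand, which were at 2775 and 3292.5 in young replicate 14 and at 249 or lower elsewhere.

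**Figure D4:**
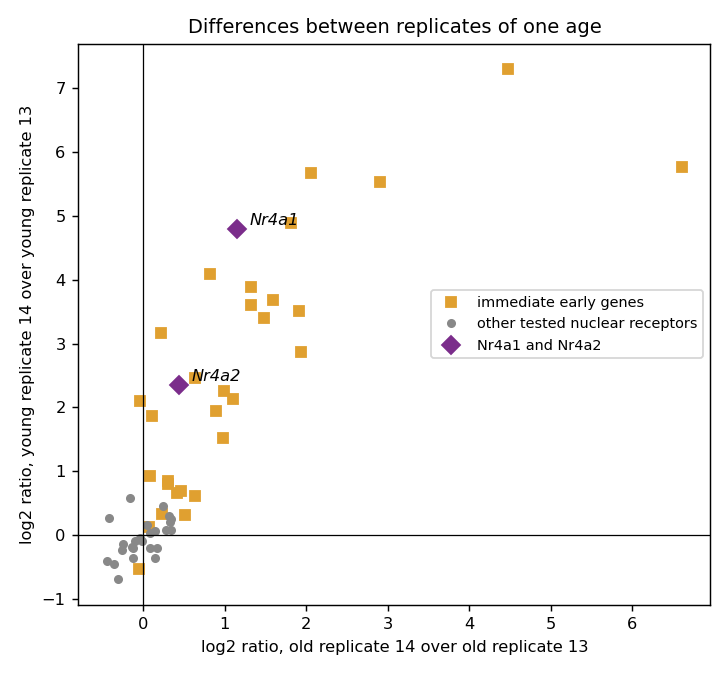
Log2 ratio of replicate 14 to replicate 13 in old HSCs (horizontal axis) and in young HSCs (vertical axis), with 1 point per gene for the tested nuclear receptors and the immediate early genes. Nr4a1 and Nr4a2 lie among the immediate early genes, with ratios of 27.7 and 5.11 in young HSCs before the log, while the other receptors lie near 0 at both ages.

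The windows of the Nr4a genes are printed because Nr4a1 and Nr4a2 moved together in that sample. They are the 250 bases before the start from RefSeq on GRCm38.p6, 5′ to 3′ on the gene's strand, with CGTCA or its reverse complement in capitals. CGTCA is the core of the cyclic AMP response element, bound by CREB. Nr4a1 lies at chr15:101266596-101266845 on the plus strand, Nr4a2 at chr2:57124004-57124253 on the minus strand and Nr4a3 at chr4:48045055-48045304 on the plus strand.
Nr4a1: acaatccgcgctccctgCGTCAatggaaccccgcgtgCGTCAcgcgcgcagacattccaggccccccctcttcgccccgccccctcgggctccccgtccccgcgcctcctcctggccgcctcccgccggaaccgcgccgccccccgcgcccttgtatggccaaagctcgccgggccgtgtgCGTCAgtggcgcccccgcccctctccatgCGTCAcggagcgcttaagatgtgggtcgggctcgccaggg
Nr4a2: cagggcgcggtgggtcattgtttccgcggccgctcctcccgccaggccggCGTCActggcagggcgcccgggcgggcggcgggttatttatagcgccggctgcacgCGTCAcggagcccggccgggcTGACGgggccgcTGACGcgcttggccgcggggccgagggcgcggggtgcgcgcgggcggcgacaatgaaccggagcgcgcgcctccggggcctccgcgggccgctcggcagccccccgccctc
Nr4a3: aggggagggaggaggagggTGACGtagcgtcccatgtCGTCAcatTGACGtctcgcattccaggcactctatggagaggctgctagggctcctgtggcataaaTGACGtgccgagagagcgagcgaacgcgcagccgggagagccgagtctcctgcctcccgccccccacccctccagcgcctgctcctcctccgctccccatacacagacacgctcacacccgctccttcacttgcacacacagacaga
Each window held 4 matches. At least 1 match was present in 17.8% of all windows and at least 4 in 45 of the 32851, or 0.137%. The longer TGCGTCA, which contains CGTCA, occurred 4 times in the window of Nr4a1, and no other window reached 4, while 1.75% held it at least once. CGTCA and TGCGTCA were picked after the sequences were seen. Nr4a3, which was outside the filter at 14 or less in every replicate, had as many matches as its relatives. Any relation of matches to level was not tested. Of the other motifs searched on both strands, CACGTG was in 6.02% of all windows, AGAACA in 16.1% and TAGGTCA, which contains AGGTCA, in 2.23%. The full element TGACGTCA was in 1.55% of all windows and, among the receptors, in that of Nr2e1.

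The machinery that receptors share lay slightly below 0 with no call. Of 22 tested coactivators 0 passed in limma and 0 with limma-voom, none had an unadjusted p under 0.05, 19 lay below 0 and the median log2 fold change was -0.22. The 3 with the smallest p were Ppargc1b at -0.50, Ncoa3 at -0.31 and Arid1a at -0.42. Of 15 corepressors 0 passed with either tool, none had an unadjusted p under 0.05, and 12 lay below 0 with a median of -0.18. Gps2 was at -0.30, Sin3a at -0.24 and Nrip1 at -0.23. These medians leaned on old replicate 14, without which they were -0.06 and -0.04. Of 13 chaperones of steroid receptors 0 passed with either tool and 1 had an unadjusted p under 0.05, Hsph1 at -0.38, ahead of Fkbp4 at -0.29 and Stip1 at -0.27. Their median was -0.11.

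Genes that make or carry ligands gave 1 call. Of 17 tested enzymes of vitamin D and steroid metabolism, Srd5a1, a steroid reductase, rose to 1064.5 and 1178.5 in old HSCs, against 585 and 544 in young HSCs. Old values were above young values in every pair, with a log2 fold change of 0.99 and an adjusted p of 0.0274 in limma. Cyp27a1, a sterol hydroxylase, was at -0.70 and Hsd17b10 at 0.44, and neither passed. Of 7 genes of the thyroid hormone axis 0 passed with either tool and 3 had an unadjusted p under 0.05 in each. Among them were Me1 at 0.69 and the transporter gene Slc16a10 at -0.53.

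The authors' deposited table holds their own comparison of old over young, without saying which libraries counted as replicates. The authors' deposited table marks 6 of the 40 receptor rows as higher, against 6.0% of its 22284 genes with a result. They are Nr1d1, Rorb, Nr1h3, Vdr, Nr3c2 and Pgr. Esrrg has no mark in the authors' deposited table, at a log2 fold change of 0.73 and an FDR of 0.0202. Nr1d1 is marked there at an FDR of 0.0413, so the marks do not follow the FDR alone. The authors' deposited table marks 3 as lower, Hnf4a, Nr4a1 and Nr4a2, against 5.82% of the genes. For Rorb, Pgr and Hnf4a the authors' deposited table gives log2 fold changes of 3.68, 1.68 and -1.54. For Nr4a1 the authors' deposited table gives -3.30 with an FDR of 1.14e-125, and for Nr4a2 it gives -1.30 with an FDR of 1.7e-17. Those 2 genes were the receptors in which a single young sample held the difference, as set out above.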

How the data were processed

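For every gene the deposited files hold a count-like value and an FPKM value, which the deposited table of the whole series repeats. Per the submitters' processing notes, the build was mm9, and the authors' tools included DESeq, whose version and role are not stated. No source used here names the aligner or the counter. The deposited count-like values were treated as a score: reads multiplied by 1 factor per library and rounded by the authors, as the spacing of the values showed. Count tests were therefore not used. The deposited FPKM is proportional to that score for each gene. The authors' deposited table also gives log2 fold changes and FDR values, which are adjusted p-values.

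For each replicate the mean of its 2 technical libraries was taken. The log2(value + 0.5) of the 4 replicates entered limma 3.58.1 (R 4.3.3), with a term for age alone, two-sided tests, a prior with a trend and adjustment after Benjamini and Hochberg. Genes were tested if 2 or more replicates reached 10. Fold changes are on the log2(value + 0.5) scale and understate changes of low genes. The factors, between 0.617 and 1.838, were estimated from the whole numbers that a library skipped or doubled. Both steps were tested on simulated data.

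The members and lists were chosen with earlier results of these data known. Values of every replicate are given for receptors that were called, had an unadjusted p under 0.05 or averaged at least 1 FPKM, and up to 3 genes with the smallest p are named in each other list, of which 2 are not reported here. In the marker lists the called genes were named after their values were seen, as were CCAAT and CGTCA among the motifs. Promoters were matched by symbol, for 36 of 39 members. Alternatives were a pseudocount of 5, no filter, a mean of at least 1 FPKM, median-ratio scaling, limma-voom, single technical libraries, each replicate left out and a replicate block.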

Additional observations from a re-analysis of the deposited data

How the results depend on the processing

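Rorb, Pgr and Hnf4a kept their directions under every alternative that held them, while the number of genes called varied. With no filter, limma called 0 genes higher and 0 lower (1826 and 1117 at an unadjusted p under 0.05), and 0 receptors, with adjusted p-values of 0.0551 for Rorb, 0.0766 for Pgr and 0.0777 for Hnf4a. With a mean of at least 1 FPKM, 237 genes were higher and 65 lower, and 1 receptor was higher, since Rorb was not tested. The lower-numbered technical libraries gave 242 genes higher and 51 lower, and the higher-numbered ones gave 52 lower. Rorb had a log2 fold change of 4.04 with the lower-numbered libraries and 3.44 with the higher-numbered ones. Leaving out 1 replicate gave 0 to 206 genes higher and 0 to 68 lower, with 0 to 2 receptors higher and 0 to 3 lower. With the replicate number as a replicate block, 1698 genes were higher and 1068 lower, and 6 receptors were higher and 3 lower. Besides Rorb, Pgr and Hnf4a, these were Esrrg, Nr1h3, Nr3c2 and Vdr, which were higher, and Nr4a1 and Nr4a2, which were lower. Deviations of same-numbered samples correlated at 0.544 over all tested genes, from only 2 pairs. No label says whether a number marks a shared sort, day or animal, so what such samples share is not known. Median-ratio scaling moved the median log2 fold change of all genes from 0.044 to -0.001.

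The sign of 6 uncalled receptors turned in some settings, those of Nr4a1 and Nr4a2 only without young replicate 14 and the others from values between -0.14 and 0.03. Under median-ratio scaling Nr2c2 was at -0.04, Esr2 at -0.02 and Esrra at -0.01, and with limma-voom they were at -0.03, -0.0086 and -0.0003. The lower-numbered libraries gave -0.0021 for Nr2c2 and -0.15 for Esr2, and the higher-numbered gave -0.01 for Esrra. With 1 replicate left out, the lowest and highest values were -0.01 and 0.03 for Nr2c2, -0.18 and 0.24 for Esr2, -0.07 and 0.13 for Esrra, -0.36 and 0.08 for Nr1i3, -4.31 and 0.49 for Nr4a1, and -2.02 and 0.33 for Nr4a2. The cause was not tested. With 2 replicates per age, small changes were not detectable.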
